A study of Drosophila melanogaster with 6 samples.

Results

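The 23 transcripts described here were low in whole midguts of *Apc1* mutant females and well above the array median in wild-type females, out of 12990 gene entries measured on the same arrays. They were chosen by a rule on the deposited log2 values themselves: above 6 on every wild-type array, below 4 on every *Apc1* mutant array, and a wild-type mean below 11. Genes whose symbols begin with Jon, Vha, Cyp or Gst were left out, as were 6 further named genes. Of the 26 named probe sets that met the thresholds, 3 were removed in this way (*Jon25Bi*, *Jon25Bii* and *CG6296*). Because the same contrast chose the members, their levels and differences between the genotypes are a description and carry no test.

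The samples were 3 pools of midguts from *Apc1* Q8 whole-animal null mutants and 3 pools from wild-type flies. All animals were 7-day-old adult females kept at 25 °C. RNA was hybridized to Affymetrix Drosophila 2.0 arrays, 1 sample per array. The sources name different wild-type strains (Canton S in the study's methods, w1118 in the series' design text), and no common background with the mutant stock is stated, so the mutation and the strain background cannot be told apart. Nothing states whether the 3 samples of a genotype came from separate cultures. The p-values below set a difference against the spread between these samples only, estimated in part over all entries.

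The adult fly midgut is an epithelium of absorptive enterocytes and hormone-secreting enteroendocrine cells, both renewed from intestinal stem cells. Enterocytes differ along the gut, and regions differ in the proteases, glycosidases, lipases and transporters they make. One of them, the copper cell region of the middle midgut, secretes acid. Apc1 belongs to the complex that marks β-catenin, called Armadillo in flies, for destruction, and loss of *Apc1* switches on Wingless target genes. In RNA from whole midguts, fewer cells of a type and less RNA per cell cannot be told apart.

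Array medians over all probe sets were 2.54 to 2.60, with upper quartiles of 5.30 to 5.46, and the correlations between arrays, across genes, were 0.983 to 0.992 within a genotype and 0.954 to 0.964 between genotypes. *Apc*, the array's symbol for *Apc1*, was measured at 6.41, 6.13 and 6.94 in *Apc1* mutants, against 6.55, 5.89 and 6.63 in wild type, so its transcript did not separate the genotypes. Among cell type markers, 1 of 5 progenitor genes, *esg*, was higher in mutants (difference 1.10, limma adjusted p = 0.000761), 5 of 12 enteroendocrine genes were higher and 1 was lower, and 1 of 6 enterocyte genes was lower. Markers of muscle, fat body, Malpighian tubule, ovary and hindgut gave no calls in limma in either direction; at an unadjusted p under 0.05 and more than 2-fold, 3 fat body genes were lower and 1 muscle gene was higher. The list mean of the fat body genes set wild type replicate 2 and mutant replicate 2 apart: it was 3.98, 2.84 and 4.12 on the mutant arrays, against 4.25, 5.41 and 4.71 on the wild-type arrays.

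On the deposited scale the 23 members lay between 1.33 and 4.0 in *Apc1* mutants, against 6.06 to 10.36 in wild type. The mutant values stood between percentiles 15.7 and 62.6 of their array, and 9 of the 23 members were below the array median on all 3 mutant arrays. The wild-type values stood between percentiles 81.1 and 98.7. The files used here hold no detection calls, so these percentiles are the only measure of how close a mutant value was to the dim end. The log2 difference of the group means (mutant minus wild type) was between -8.08 and -2.77 with a median of -4.81, whereas the median over all entries was 0.01. On the deposited values it exceeded 64-fold for 5 members, 32-fold for 10 and 16-fold for 19. With limma, 22 of the 23 gene entries were called lower (adjusted p under 0.05 and more than 2-fold), against 3.07% of all 12990 entries called lower and 3.19% called higher; the rule fixes this count and nothing is read from it. The exception was *CTCF*, described below with its other probe sets.

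**Figure D1:**
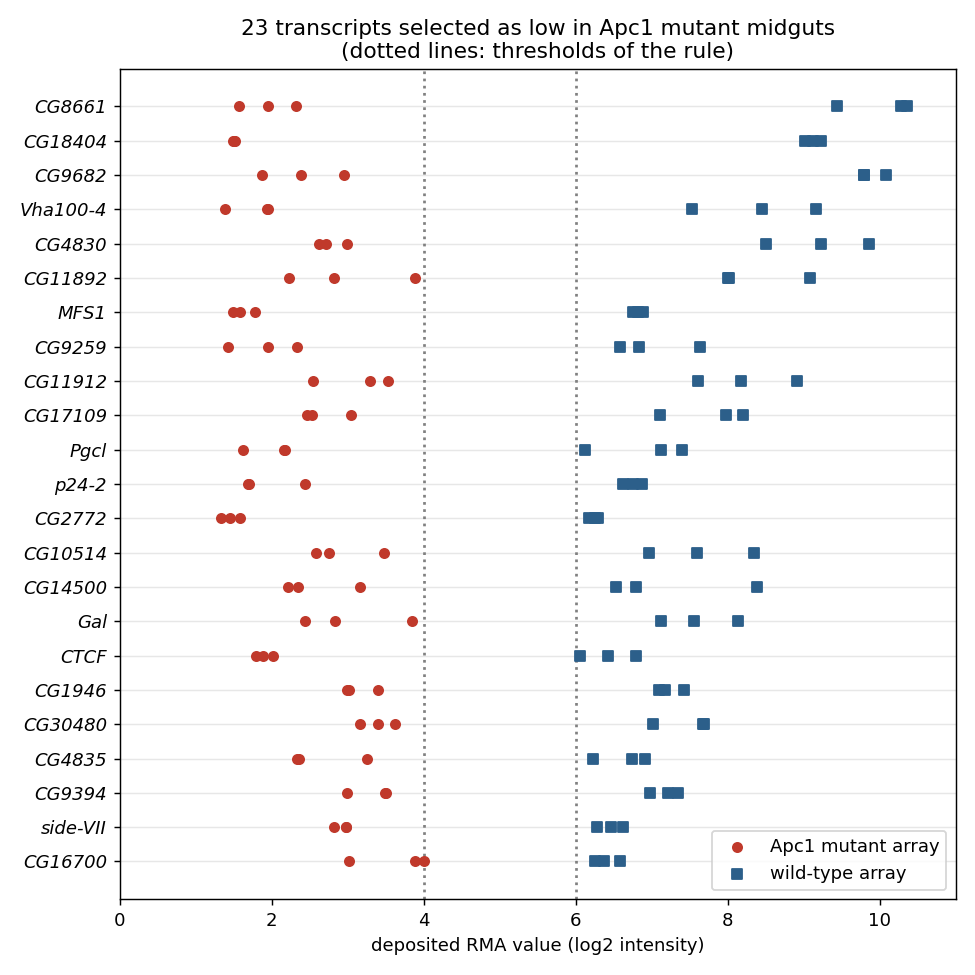
Deposited RMA value (log2 intensity, horizontal axis) of the 23 selected transcripts on each of the 3 *Apc1* mutant arrays (red circles) and 3 wild-type arrays (blue squares), ordered by the difference of the means; dotted lines mark the thresholds of the rule at 4 and 6. *CG8661* shows the widest separation (-8.08) and *CG16700* the narrowest (-2.77), and in every row the red and blue points lie apart because the rule requires it.

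The 3 widest separations belonged to genes for which the sources used here give no function. *CG8661*, on the X chromosome, had 2.32, 1.57 and 1.95 in *Apc1* mutants, against 10.28, 9.44 and 10.36 in wild type. The means were 1.95 ± 0.37 in mutants and 10.02 ± 0.51 in wild type (SD, n = 3 each), a difference of -8.08. The mutant values were all below the array median, where signal and background cannot be told apart without detection calls, so no exact fold is given. Its wild-type mean was the nearest to the upper limit of the rule.

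*CG18404* had 1.52, 1.5 and 1.49 in *Apc1* mutants, against 9.23, 9.02 and 9.12 in wild type. *CG9682* had 2.39, 2.95 and 1.88 in *Apc1* mutants, against 9.79, 9.79 and 10.09 in wild type. These genes are next to each other on arm 3R, with no other measured gene between them, and differed by -7.62 and -7.48 between the genotypes. *CG18404* was the member with the smallest spread among mutants (SD 0.01), so that its lowest wild-type array lay 7.5 above its highest mutant array. The measured genes on either side of the pair, *CG9733* (difference -0.00) and *heca* (0.30), were not called.

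Several members encode digestive enzymes or belong to enzyme families. *Gal* encodes β-galactosidase, which removes galactose from sugars and glycoconjugates. It had 2.83, 3.85 and 2.44 in *Apc1* mutants, against 8.14, 7.13 and 7.56 in wild type, a difference of -4.57. The mutant arrays of *Gal* spread by more than those of most members (SD 0.73), and mutant replicate 2 came within 0.15 of the threshold. *Pgcl*, listed under its older symbol *pcl*, encodes a pepsinogen-like aspartic protease. It had 2.16, 1.63 and 2.18 in *Apc1* mutants, against 7.13, 6.13 and 7.40 in wild type, with wild type replicate 2 only 0.13 inside the rule.

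*CG11912* carries a serine protease number, SP140, among its RefSeq synonyms. It had 3.29, 2.55 and 3.53 in *Apc1* mutants, against 8.18, 8.92 and 7.61 in wild type, a difference of -5.11. Its probe set also names the *Drosophila simulans* copy of the gene. *CG11911*, which adjoins *CG11912* and carries SP103, stayed bright in both genotypes at 10.19, 8.20 and 9.72 in mutants, against 10.32, 10.78 and 10.56 in wild type, and its difference of -1.19 was not called (limma adjusted p = 0.153). *CG2772*, counted here on the lipase list, had 1.59, 1.45 and 1.33 in *Apc1* mutants, against 6.26, 6.18 and 6.29 in wild type. It was among the tightest in both genotypes, with SDs of 0.13 in mutants and 0.05 in wild type (n = 3 each).

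Transporters and a proton pump subunit formed another group. *Vha100-4* encodes an a subunit of the vacuolar ATPase, the pump that moves protons across membranes; it stayed among the members because the deposited table lists it as *CG7678*. It had 1.94, 1.39 and 1.95 in *Apc1* mutants, against 8.46, 7.53 and 9.17 in wild type, a difference of -6.63. *Vha100-4* is also a marker of the copper cell region, and so is *lab*, the homeobox gene that specifies copper cells. *lab*, which the rule leaves out by name, had 2.10, 2.10 and 2.26 in *Apc1* mutants, against 6.98, 5.90 and 6.96 in wild type (difference -4.46, limma adjusted p = 0.000185). Its wild type replicate 2 was also below the minimum of 6. The other 3 measured genes of that list (*ct*, *Vha16-2* and *Vha14-2*) had means under 2 in both genotypes and were not called.

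Among the 32 other vacuolar ATPase subunit genes measured, 1 was called lower, *Vha100-5* (-1.29, limma adjusted p = 0.0322), and none was called higher, nor passed more than 2-fold at an unadjusted p under 0.05. The lower share, 3.12%, was close to the 3.07% of all entries. The *Vha100-5* call was lost when any array other than mutant replicate 1 was left out. *Vha100-2*, the neighbour of *Vha100-4* on 3R, had 8.94, 9.25 and 8.91 in mutants, against 8.09, 8.70 and 8.56 in wild type, and was not called (0.58, limma adjusted p = 0.0875). These neighbours on 3R, both genes for an a subunit, thus differed by -6.63 and 0.58.

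*MFS1*, a transporter of the major facilitator superfamily listed as *CG30272*, had 1.78, 1.58 and 1.49 in *Apc1* mutants, against 6.82, 6.76 and 6.89 in wild type. Both genotypes were tight, with SDs of 0.15 in mutants and 0.07 in wild type (n = 3 each). Of the 8 other measured genes with an MFS number, *MFS9* was called lower (-1.15, limma adjusted p = 0.00103) and none higher, at an adjusted or an unadjusted p under 0.05 with more than 2-fold. The measured genes 2, 3 and 4 places from *MFS1* on one side, *CG12490* (-2.02), *CG9825* (-3.54) and *CG9826* (-1.52), were all called lower (limma adjusted p = 0.0126, 0.0127 and 0.0391), whereas the gene between them and *MFS1*, *CG30265*, was not (-0.91, adjusted p = 0.338). Without *Apc1* mutant replicate 3 none of the 3 calls held, and the *CG9826* call was also lost without mutant replicate 1, mutant replicate 2 or wild type replicate 2 and with quantile normalization.

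*CG16700* was the member nearest to the upper limit for mutants. It had 4.0, 3.89 and 3.02 in *Apc1* mutants, against 6.38, 6.59 and 6.26 in wild type, with mutant replicate 1 just under 4 before rounding. Its neighbour *CG4991*, whose annotated span overlaps that of *CG16700*, had 3.88, 3.66 and 3.81 in mutants, against 6.67, 6.65 and 5.83 in wild type (difference -2.60, limma adjusted p = 0.000731). *CG4991* missed the rule by 0.17 on wild type replicate 3, and signal from transcripts of the shared span cannot be told apart on these arrays without the probe positions.

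*p24-2* belongs to the p24 family of cargo proteins that cycle between endoplasmic reticulum and Golgi. It had 2.44, 1.70 and 1.69 in *Apc1* mutants, against 6.76, 6.63 and 6.88 in wild type. The other p24 genes looked at by name, *eca* (0.06), *bai* (0.06), *loj* (-0.09), *opm* (0.16) and *CHOp24* (-0.26), were not called, and *p24-1* was called higher (2.03, limma adjusted p = 0.000291). The p24 family was therefore measured on both sides: *p24-1* had 6.69, 6.77 and 6.80 in mutants, against 4.67, 4.5 and 4.99 in wild type. *Unc-115b*, whose span overlaps *p24-2*, fell short of 2-fold (-0.62, limma adjusted p = 0.0103).

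*side-VII*, listed as *CG12950*, encodes a membrane protein of the sidestep family, known for guiding motor axons. It had 2.98, 2.82 and 2.98 in *Apc1* mutants, against 6.47, 6.28 and 6.63 in wild type. The 7 other side genes had means between 1.34 and 2.98 in mutants and between 1.59 and 3.19 in wild type, and limma called none of them in either direction; none passed at an unadjusted p under 0.05 with more than 2-fold. *side-VII* and *p24-2* lie 7 places apart in the order of measured genes on 3R.

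*CG9259*, *CG10514* and *CG11892* carry Dro numbers, the names RefSeq lists for ecdysteroid kinase-like genes, a family whose best known members add phosphate to the moulting hormone. *CG9259* had 2.33, 1.43 and 1.95 in *Apc1* mutants, against 6.84, 7.64 and 6.58 in wild type. *CG10514* had 2.75, 3.48 and 2.58 in *Apc1* mutants, against 7.60, 8.35 and 6.97 in wild type. *CG11892* had 2.82, 3.89 and 2.23 in *Apc1* mutants, against 8.02, 9.08 and 8.0 in wild type. In all 3 genes wild type replicate 2 was the highest wild-type array, and in *CG10514* and *CG11892* mutant replicate 2 was the highest mutant array as well. The probe set of *CG11892* is of the type the array's maker marks as able to match more than one transcript, so related genes can contribute to its value.

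Of the 42 other measured genes with a Dro number, 12 (28.6%) were called lower and 6 (14.3%) higher, against 3.07% and 3.19% of all entries, a family looked at after its values were seen. *CG10560* is one that missed the rule narrowly, with 4.08, 2.87 and 3.37 in *Apc1* mutants, against 6.62, 8.43 and 7.37 in wild type.

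*CTCF*, which encodes a zinc finger protein that binds insulators, was the only member with more than 1 probe set, and they differed between the genotypes by different amounts. The probe set that met the rule, 1636485_at, had 1.89, 2.02 and 1.79 in *Apc1* mutants, against 6.06, 6.79 and 6.43 in wild type, a difference of -4.52. The probe set 1626500_a_at had 5.38, 5.39 and 5.32 in *Apc1* mutants, against 6.57, 6.45 and 6.64 in wild type, a difference of -1.19. The brightest, 1627546_at, had 7.04, 7.06 and 7.01 in *Apc1* mutants, against 6.96, 7.08 and 7.13 in wild type. On this last one the genotypes overlapped, and the gene entry it represents was not called (-0.02, limma adjusted p = 0.939). The size of the *CTCF* difference thus depended on the probe set, and when its probe sets were averaged it was the 1 member lost from the 23. Which transcripts or exons each probe set covers was not analysed here. The other 22 members had 1 probe set each, so a dependence on the probe set could not be looked at for them.

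**Figure D2:**
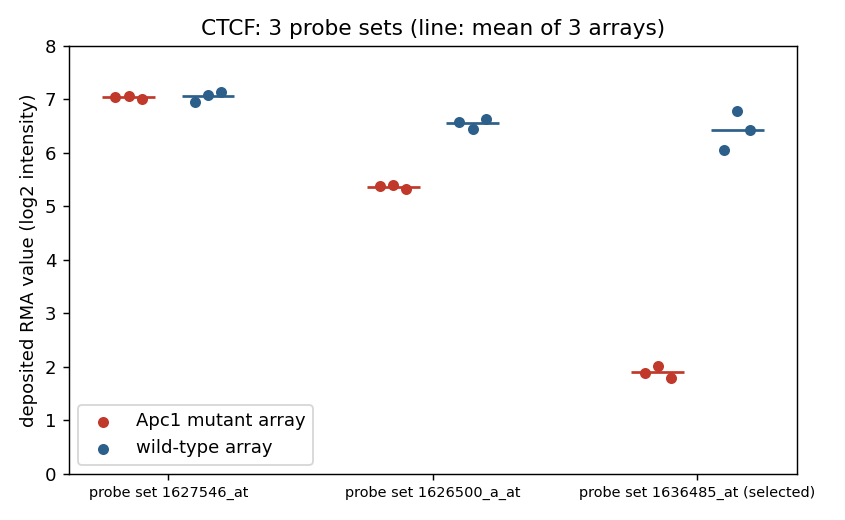
Deposited RMA value (log2 intensity) of the 3 *CTCF* probe sets on each array, *Apc1* mutants (red) left of wild type (blue), with a line at the mean of 3 arrays. The genotypes coincide near 7 in 1627546_at, differ by -1.19 in 1626500_a_at and by -4.52 in the selected 1636485_at.

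The remaining members are known by CG numbers without a function in the sources used here. *CG4830* had 2.63, 2.99 and 2.71 in *Apc1* mutants, against 9.23, 9.86 and 8.51 in wild type, the fifth widest separation (-6.43). *CG17109* had 2.46, 2.53 and 3.04 in *Apc1* mutants, against 7.98, 7.11 and 8.21 in wild type. It stood out from its surroundings: the neighbours on both sides, *CG6726* (-0.43) and *CG6733* (-0.22), were not called, and *CG6738*, 2 places away, was called higher (3.96, limma adjusted p = 0.000228). *CG14500* had 2.22, 2.35 and 3.17 in *Apc1* mutants, against 8.39, 6.53 and 6.80 in wild type. Its wild-type SD of 1.00 was the largest of any member in either genotype and came from replicate 1.

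*CG1946* had 3.40, 3.02 and 2.99 in *Apc1* mutants, against 7.18, 7.10 and 7.43 in wild type. It adjoins *Dgat2*, which encodes an enzyme that makes triglyceride, and beyond that lies *CG1941*. *Dgat2* was called lower at 2.54, 2.28 and 2.64 in mutants, against 3.67, 4.64 and 4.40 in wild type (-1.75, limma adjusted p = 0.00541), while *CG1941* had 8.04, 7.40 and 7.34 in mutants, against 6.63, 6.86 and 6.86 in wild type and was not called (0.81, less than 2-fold). The 3 genes in a row therefore differed by -4.10, -1.75 and 0.81.

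*CG30480* had 3.40, 3.16 and 3.63 in *Apc1* mutants, against 7.68, 7.02 and 7.69 in wild type. *CG30479*, whose annotated span overlaps that of *CG30480* and which shares an older symbol with it, was called lower at the edge of the fold threshold (-1.04, limma adjusted p = 0.00941), and lost the call without *Apc1* mutant replicate 1. *CG9394* had 3.5, 2.99 and 3.49 in *Apc1* mutants, against 7.35, 7.22 and 6.98 in wild type. *CG4835* had 3.25, 2.36 and 2.33 in *Apc1* mutants, against 6.74, 6.91 and 6.23 in wild type. No nearest neighbour of *CG9394* or *CG4835* was called.

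Several genes lay just outside the thresholds. Nearest the wild-type threshold, *CTCF* (0.06 inside), *Pgcl* (0.13) and *CG2772* (0.18) were members. *CG31446* was outside by less than 0.01, with 3.18, 2.56 and 2.45 in mutants, against 7.24, 6.0 and 7.62 in wild type. *Ugt37A3* was outside by 0.06 and *CG4991* by 0.17. Nearest the mutant threshold, *CG16700* (less than 0.01 inside), *CG11892* (0.11) and *Gal* (0.15) were members, and *CG10560* (0.08 outside), *Phyhd1* (0.30) and *CG30495* (0.36) were not. Once the genes left out by symbol were set aside, the upper limit on the wild-type mean removed no gene. A further 5 probe sets with no gene name were above 6 in wild type and below 4 in mutants, and 21 named probe sets met the mirror image, above 6 in mutants and below 4 in wild type.

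Within wild type, where the rule set a minimum on each array and a limit on the mean, the members did not move together. Wild type replicate 2 was the highest of the 3 wild-type arrays for 8 members, the lowest for 14 and in the middle for 1. Over all entries it was the highest for 33.6%, the lowest for 34.9% and in the middle for 31.5%. Wild type replicate 3 was the highest for 11 members, the lowest for 8 and in the middle for 4. Wild type replicate 1 was in the middle for 18 members, against 34.8% of all entries. Replicate 2 was therefore not the only array at the ends. Replicate 2 lay more than 0.5 above the mean of the other 2 for 6 members (*CG11892*, *CG10514*, *CG11912*, *CG4830*, *CG9259* and *CTCF*). It lay more than 0.5 below for 7 (*Vha100-4*, *Pgcl*, *CG14500*, *CG17109*, *CG8661*, *Gal* and *CG30480*). Among the 3271 entries with a wild-type mean of 6 to 11, these shares were 5.66% above and 10.1% below. Those entries had no minimum on each array, whereas the rule chose the members on these same wild-type values. The shares are therefore a description, and no comparison is drawn from them. The largest deviations of replicate 2 were 1.08 for *CG11892* and -1.28 for *Vha100-4*.

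Members were thus found on both sides in wild type replicate 2. On that array the fat body list was highest (5.41, against 4.25 and 4.71 on the other wild-type arrays), as were the Malpighian tubule list (5.60, against 4.56 and 4.83), the ovary list (2.61, against 2.06 and 1.81) and the muscle list (9.38, against 9.01 and 9.01), and *lab* was lowest (5.90, against 6.98 and 6.96). The hindgut list was in the middle on wild type replicate 2 (2.06, against 2.01 and 2.26). On mutant replicate 2 the fat body list (2.84) and the ovary list (1.81) were the lowest of the mutant arrays. The muscle list (9.41) and the hindgut list (2.35) were the highest there, and the Malpighian tubule list (4.91) was in the middle. For 6 members, *CG10514*, *CG11892* and *Gal* among them, mutant replicate 2 gave the highest mutant value, and for 8 the lowest. The part of other tissue in these deviations was not tested. The median SD of the members was 0.32 among mutants and 0.39 among wild types, against 0.14 and 0.19 over all entries and 0.18 among wild types for entries with a wild-type mean of 6 to 11. No entries of a like level were set beside the mutant SD, so 0.32 cannot be read as wide for dim transcripts. Without wild type replicate 2 the rule gave 33 genes, all 23 members among them, and without mutant replicate 2 it gave the same 23.

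**Figure D3:**
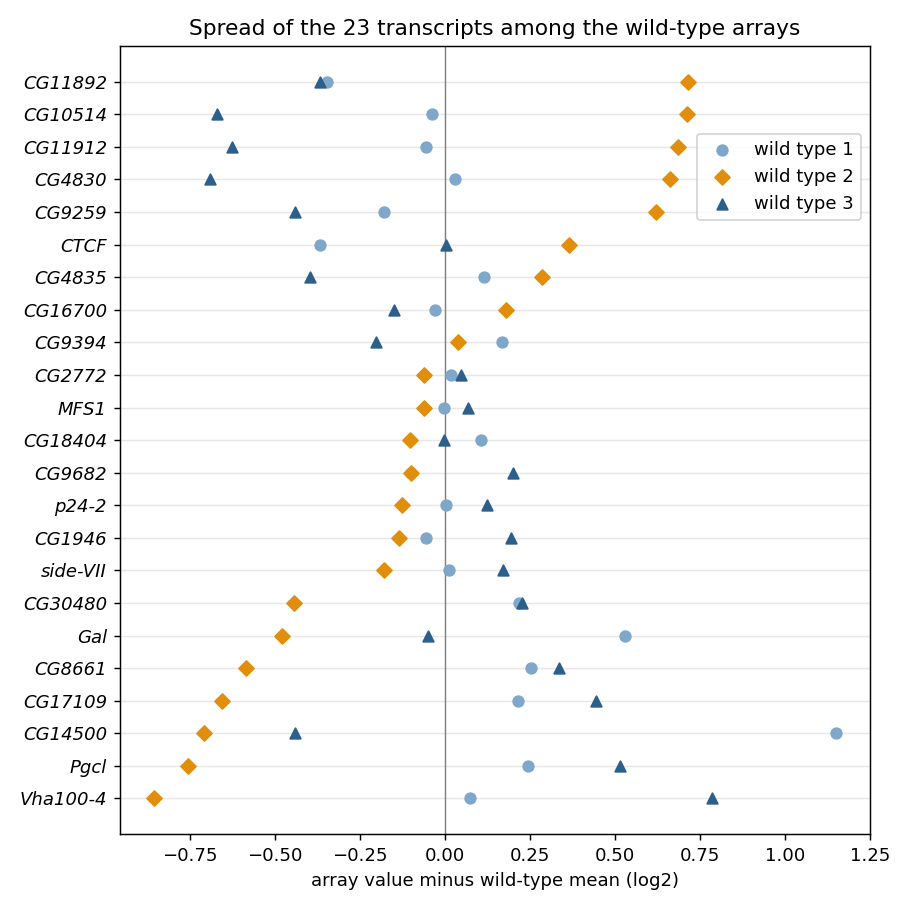
Value of each selected transcript on the 3 wild-type arrays minus its wild-type mean (log2, horizontal axis), ordered by how far wild type 2 (orange diamonds) lay from the other 2 arrays. Wild type 2 is the highest array for the 8 transcripts at the top and the lowest for the 14 at the bottom, with *CG11892* at one end and *Vha100-4* at the other.

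The members were spread over the genome. Of the 23, 9 lay on 3R, 5 on 2R, 4 on 2L, 3 on X and 2 on 3L. Arm 3R held 39.1% of the members, 24.9% of the 12485 entries placed on an arm and 28.9% of the placed entries called lower. *Apc* also lies on 3R. The nearest members to *Apc* were *CG9682* and *CG18404*, 188 and 189 places away in the order of measured genes, then *CG11892* and *CG10514* at 332 and 333. *CG17109* was 653 places away, *Vha100-4* 1139, *CG4830* 1832, *side-VII* 2105 and *p24-2* 2112.

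**Figure D4:**
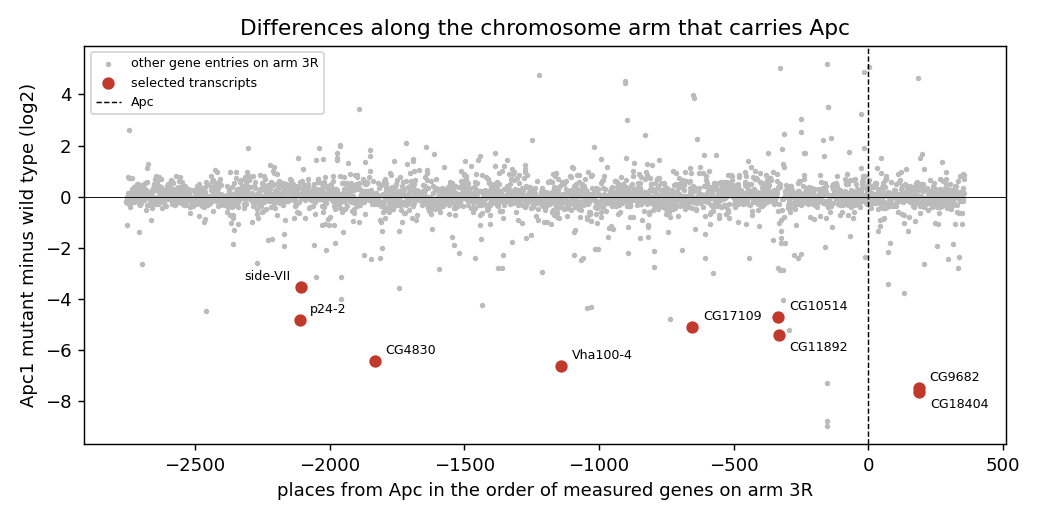
Difference between the genotypes (*Apc1* mutant minus wild type, log2, vertical axis) for the measured genes of arm 3R in chromosomal order, counted in places from *Apc* (dashed line). The 9 selected transcripts (red) lie on both sides, the nearest 188 places away; the grey points below -7 near *Apc* are *CG6296*, *CG6295* and *CG17192*, which the rule leaves out.

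Genes next to the members were compared with limma, since the rule did not use them. Of the 42 nearest measured neighbours, 5 (11.9%) were called lower, against 3.07% of all entries. They were *CG10513* (-2.78, limma adjusted p = 0.0021), *CG33510* (-2.66, adjusted p = 0.00104), *CG4991* (-2.60), *Dgat2* (-1.75) and *CG30479* (-1.04). *CG10513* had 3.84, 4.41 and 4.0 in mutants, against 6.14, 7.13 and 7.31 in wild type, and *CG33510* had 2.28, 1.68 and 2.13 in mutants, against 4.76, 5.10 and 4.21 in wild type. Both carry Dro numbers, like the members they adjoin (*CG10514* and *CG9259*). The spans of *CG4991* and *CG30479* overlap those of their members, and without overlapping neighbours 3 of 32 were called lower. None of the 42 was called higher by limma, and 1 was higher at an unadjusted p under 0.05 with more than 2-fold. The other 37 neighbours were not called, among them both neighbours of *CG8661*, *CG4830*, *CG17109*, *p24-2*, *side-VII*, *CG2772*, *Gal*, *Pgcl* and *Vha100-4*.

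The row of Dro genes around *CG10514* and *CG11892* showed both directions. In order along 3R the differences were -0.56 for *CG11878*, -2.78 for *CG10513*, -4.71 for *CG10514*, -5.39 for *CG11892*, -0.30 for *CG31300*, -1.03 for *CG31104*, -2.86 for *CG13658* and 5.04 for *CG11893*. Of the non-members in this row, *CG10513*, *CG31104* and *CG13658* were called lower (limma adjusted p = 0.0021, 0.0187 and 0.000131) and *CG11893* higher (adjusted p = 2.13e-05). The *CG31104* call was lost without mutant replicate 1, mutant replicate 3, wild type replicate 1 or wild type replicate 3. *CG11893* had 7.36, 7.81 and 7.52 in mutants, against 2.75, 2.15 and 2.66 in wild type, the reverse of its neighbours 4 and 5 places away.

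**Figure D5:**
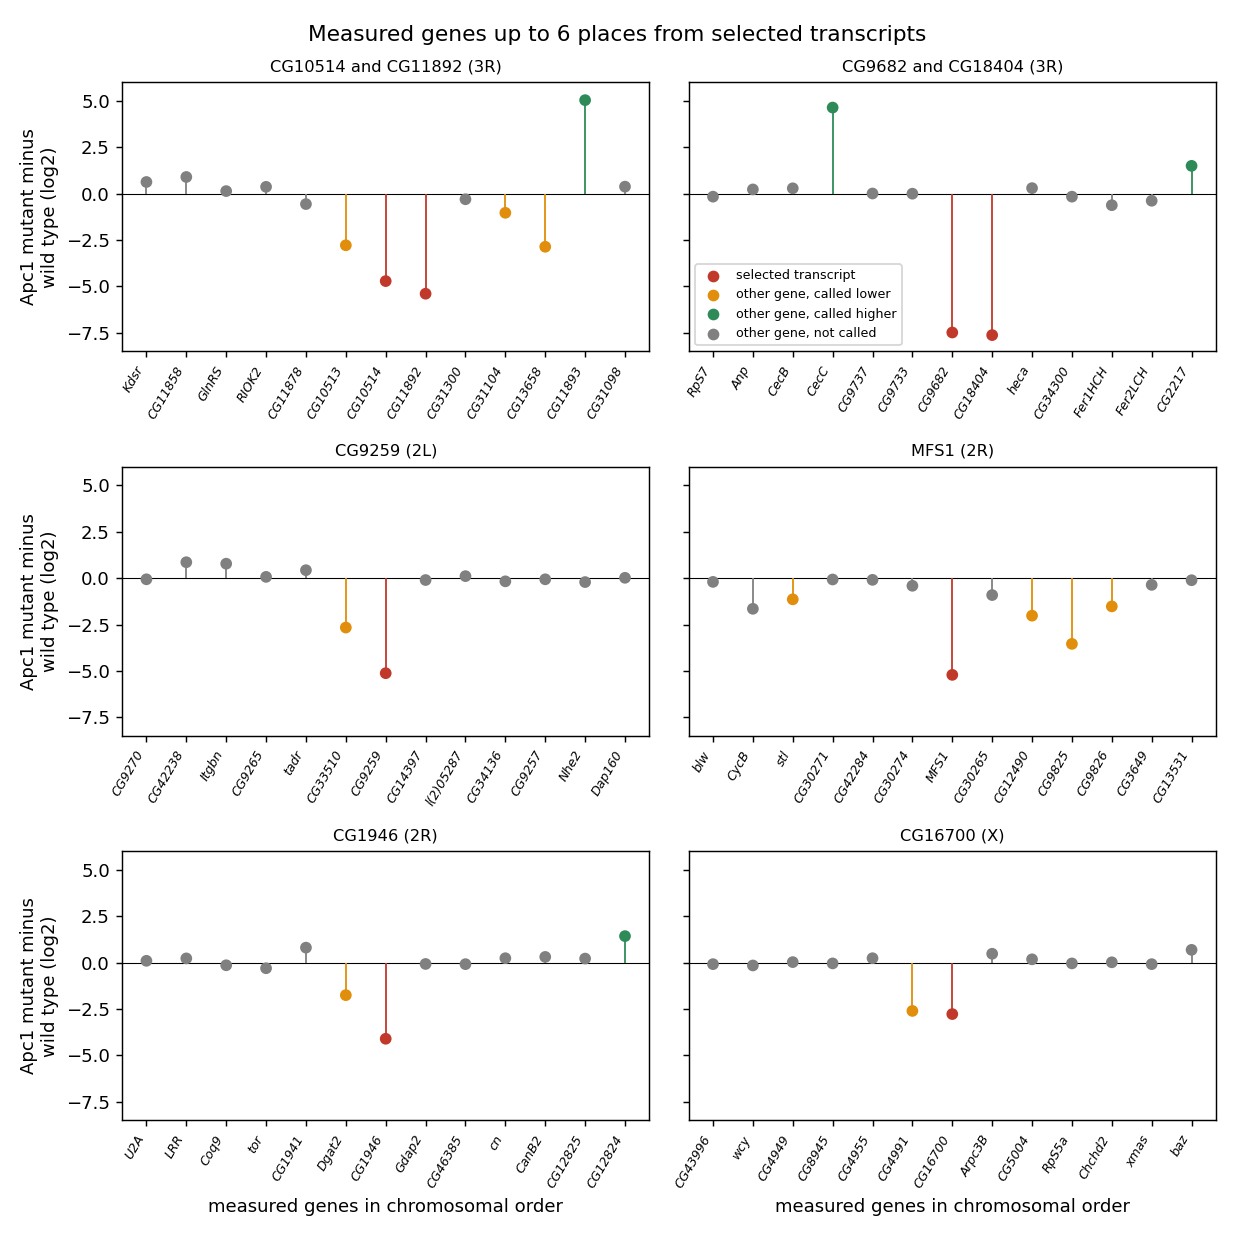
Difference between the genotypes (*Apc1* mutant minus wild type, log2, vertical axis) for measured genes up to 6 places on either side of selected transcripts at 6 loci, in chromosomal order. Selected transcripts are red, other genes called lower orange, called higher green and not called grey; *CG10513* (-2.78), *CG33510* (-2.66), *Dgat2* (-1.75) and *CG4991* (-2.60) adjoin a selected transcript, and *CG11893* (5.04) stands opposite in the row of Dro genes.

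Digestive genes outside the members were called in both directions on the lists used here. Of 83 measured genes on lists of trypsins, maltases and amylases, mannosidases and galactosidases, lipases, lysozymes, sterol transport genes and nutrient transporters, 12 (14.5%) were called lower and 11 (13.3%) higher, with a median difference of -0.10, against 3.07% lower and 3.19% higher of all entries. These lists leave out the Jon proteases, of which 9 of the 13 with an SP number were called lower and all 13 had negative differences, and *CG6295* (-8.76), *CG6296* (-7.27) and *CG17192* (-8.97), which the member rule also leaves out. The count of 12 fell to 7 when *Apc1* mutant replicate 3 was left out. Among trypsins, *epsilonTry* (-4.07, limma adjusted p = 7.88e-05), *thetaTry* (-3.75) and *betaTry* (-2.04) were lower, and none of the 9 was called higher, nor passed more than 2-fold at an unadjusted p under 0.05; *etaTry* was higher by less than 2-fold (0.66, limma adjusted p = 0.0323). None of these 3 came near the rule, since all stayed above 6 in mutants.

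*Ect3*, annotated with *Gal* on the galactosidase list, was lower too, with 2.98, 2.27 and 2.71 in mutants, against 4.88, 4.86 and 5.49 in wild type (-2.42, limma adjusted p = 0.00117); it was too dim in wild type for the rule. Of the 23 lipases on the list other than *CG2772*, 3 were lower, with *mag* at -4.97, and 6 were higher, with *CG17191* at 5.19; this tally does not include *CG6295* (-8.76), *CG6296* (-7.27) and *CG17192* (-8.97), near *CG17191* on 3R. Of 178 serine proteases with an SP number other than *CG11912*, 19 (10.7%) were called lower and 9 (5.06%) higher, against 3.07% and 3.19% of all entries, a family looked at after its values were seen; 9 of those called lower were Jon proteases. Beside the copper cell genes, the regional transcription factor *Ptx1* was lower in mutants at 6.17, 5.96 and 5.89, against 7.92, 7.80 and 8.09 in wild type (-1.93, limma adjusted p = 0.000232), and *drm* was higher (1.48, adjusted p = 0.000672). On the list of 10 regional transcription factors, which includes *lab*, 2 were called lower and 1 higher, with a median difference of 0.16.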

How the data were processed

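The authors hybridized midgut RNA to Affymetrix Drosophila 2.0 arrays, summarised the scans by RMA and deposited the result on a log2 scale, with a value for each probe set on each array. Software, background correction and genome build are not given in the sources used here, and differences of dim transcripts depend on the background correction. Columns of the authors' own comparison (ratio, fold change, p-values and their adjustments) were not used. Of 18952 probe sets, 183 controls and 3977 without a gene name were left out, and 467 naming several genes were kept as entries of their own. The others were matched to RefSeq names (Release 6, names, arms and gene order only), except 118 probe sets that kept the array's own symbol. Together with those naming several genes they gave 12990 gene entries, each represented by its brightest probe set by the mean of the 6 arrays.

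Genotypes were compared with limma 3.58.1 (R 4.3.3), with Benjamini-Hochberg adjustment over all entries, and called at adjusted p under 0.05 and more than 2-fold. The fit was checked on simulated data. The number of arrays limits the precision. Members and lists were chosen with earlier results of these data known; families by RefSeq name (Dro, Vha, side, MFS, SP and p24) were added after their values were seen. Every member was named, with neighbours among the largest called differences, list genes, genes nearest the thresholds and *Apc*; genes of the rows around members were named after their values were seen. A comparison of the members with their closest relatives by protein sequence was not run. Python 3.11.15 was used for tables (pandas 2.3.3), arithmetic (numpy 2.4.6) and plots (matplotlib 3.10.9).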

Additional observations from a re-analysis of the deposited data

How the results depend on the processing

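The member count of 23 became 13 with thresholds of 6.5 and 3.5, 42 with 5.5 and 4.5, and 41 when group means replaced every array; leaving out each array gave 23 to 33. Of all entries, 265 instead of 399 were called lower at adjusted p under 0.01. Fewer entries, 4897 instead of 12990, were tested without entries of mean under 5. Then 268 instead of 399 were called lower and 237 instead of 415 higher, so these counts do not compare directly. Neighbours called lower were 2 without those entries, which also left fewer neighbours to test. They were 7 of 84 (8.33%) within 2 places. Without overlapping genes, an alternative chosen after seeing the data, they were 3 of 32. Neighbours called higher were 1 within 2 places. Other digestive genes called lower were 6 at adjusted p under 0.01 and 7 to 11 when each array was left out. Those called higher were 6 without entries of mean under 5, when fewer were tested. Array centring, quantile normalization, the mean of all probe sets and trend with robust estimation kept every count within 1.5 times.

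With the replicate block, 410 entries were called lower and 419 higher, 5 neighbours lower and 1 higher (*CG9098*, 1.12, adjusted p = 0.0254), and 14 digestive genes lower and 11 higher. Same-numbered arrays correlated in their deviations at 0.148, 0.201 and 0.0109, and differently numbered arrays at -0.228 to 0.116. Whether same-numbered arrays share more than a number is not stated and cannot be told from these values. Closest relatives by protein sequence were not run. Depth does not apply to arrays; mutant values near the array median limit the size of the differences.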
